A study of Homo sapiens with 12 samples.

Results

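The genes described here encode the subunits of Polycomb repressive complex 2 (PRC2) in SKBR3, an established human breast cancer cell line with amplified HER2 (ERBB2). They were chosen by symbol, as EZH2, EZH1, EED, SUZ12, RBBP4, RBBP7, JARID2, AEBP2, MTF2 and PHF19. All 10 were found among the 22170 genes of the expression table, and all 10 were among the 14179 genes tested. Cells of 4 groups, with 3 messenger RNA libraries each, were compared. The DMSO group received vehicle throughout, and the lapatinib group received vehicle and then 100 nM lapatinib for the last 24 h. The GSK126 group received 5 µM GSK126 for 7 days. The last group received 5 µM GSK126 for 7 days, with 100 nM lapatinib added for the last 24 h. All cells carried the label wild type, were split and replated during the 7 days, and came from this single line. Lapatinib blocks the kinases of EGFR and HER2, and GSK126 blocks the methyltransferase activity of EZH2. Separate cultures for the 3 libraries of a group are not stated in the labels, so p-values measure no more than the spread between these libraries.

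PRC2 places methyl groups on lysine 27 of histone H3, a mark of silenced genes. Its catalytic subunit is EZH2 or the paralogue EZH1. EZH2 is the form of dividing cells and EZH1 the form more common in resting cells. EED, which binds the finished mark, and SUZ12, the scaffold, are needed for activity, and RBBP4 or RBBP7 is a histone-binding subunit shared with other chromatin complexes. Around this core, either JARID2 with AEBP2 or a Polycomb-like protein (MTF2, PHF19 or PHF1) helps to bring the complex to chromatin.

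The libraries held 17.7 to 30.3 M reads on genes. Levels are normalized read counts, that is, reads adjusted for the depth of their library, and changes are differences of log2(value + 1) ± SE, with fold changes taken from the same scale. A gene was called changed at an adjusted p under 0.05 by limma, adjusted over all 14179 genes. Every member had a value of at least 10 in all 12 libraries, so none passed the filter on low values only through a group in which it was high. The cells showed the markers of their line, with ERBB2 at 154286 and KRT18 at 116242 in DMSO, while PGR was at 0 in DMSO. The libraries differed in spread, with a median SD on the log2 scale of 0.243 in DMSO, 0.116 with lapatinib, 0.432 with GSK126 and 0.203 with both drugs. GSK126 library 1 stood apart, with proportions of spike-in transcripts unlike those of any other library. The other two GSK126 libraries shared their spike-in proportions with library 1 of both drugs, in which 21669 genes had a read against 15059 to 17338 elsewhere. Among the members, GSK126 library 1 was the highest of its group for SUZ12, JARID2 and MTF2 and the lowest for EZH2, EZH1, EED and AEBP2. Results of the members that depend on these libraries are therefore given with and without them. For the genes of the other lists, fits without these libraries are not given. The term for the spike-in proportions used below is a cluster label, with GSK126 library 1 as a cluster of its own. A second cluster holds the other GSK126 libraries and library 1 of both drugs.

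After lapatinib, 4 members fell, EZH2, EED, SUZ12 and RBBP7, and 1 rose, EZH1. Of all genes tested, 14.3% fell and 13.7% rose in that comparison, and the median change was -0.65 over the members against 0.04 over all genes. Scaling to the spike-ins, which moved the median of all genes by -0.53, left 1 of these 5 calls, that of EZH2. After GSK126, 1 member rose, PHF19, where 10.7% of all genes rose. By limma 0 members fell, with 0 at an unadjusted p under 0.05 and 0 by edgeR and by DESeq2, where 3.93% of all genes fell. With GSK126 added to lapatinib, again PHF19 was the 1 member that rose, against 11.5% of all genes, and limma, edgeR and DESeq2 called 0 lower (0 at an unadjusted p under 0.05), against 6.35%. With lapatinib added to GSK126, EZH2, EED, SUZ12 and PHF19 fell and EZH1 rose, where 9.71% of all genes fell and 8.48% rose. Between both drugs and DMSO, EZH2, EED, SUZ12 and RBBP7 were lower and EZH1, AEBP2 and PHF19 higher, against 20.1% of all genes lower and 22.0% higher. RBBP4, JARID2 and MTF2 were called in none of these 5 comparisons. The comparisons share groups with each other, so these counts are not independent. The split of all calls moved with the scaling. After lapatinib 1949 genes were higher and 2024 lower, against 2317 and 1477 with total count scaling and 42 and 741 with spike-in scaling. Between both drugs and DMSO 3114 were higher and 2856 lower, against 3948 and 1812 with total count scaling, 3793 and 2227 with upper quartile scaling and 579 and 4093 with spike-in scaling. Among the members, total count scaling gave 4 higher and 1 lower in that comparison, in place of 3 and 4. The split was 1202 to 1377 between both drugs and GSK126, against 1310 to 977 with total count scaling and 11 to 3050 with spike-in scaling. For GSK126 against DMSO it was 1512 to 557, against 1541 to 261 and 555 to 12 on those 2 scalings. For both drugs against lapatinib it was 1637 to 900, against 1681 to 559 and 322 to 79 on the same scalings.

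**Figure D1:**
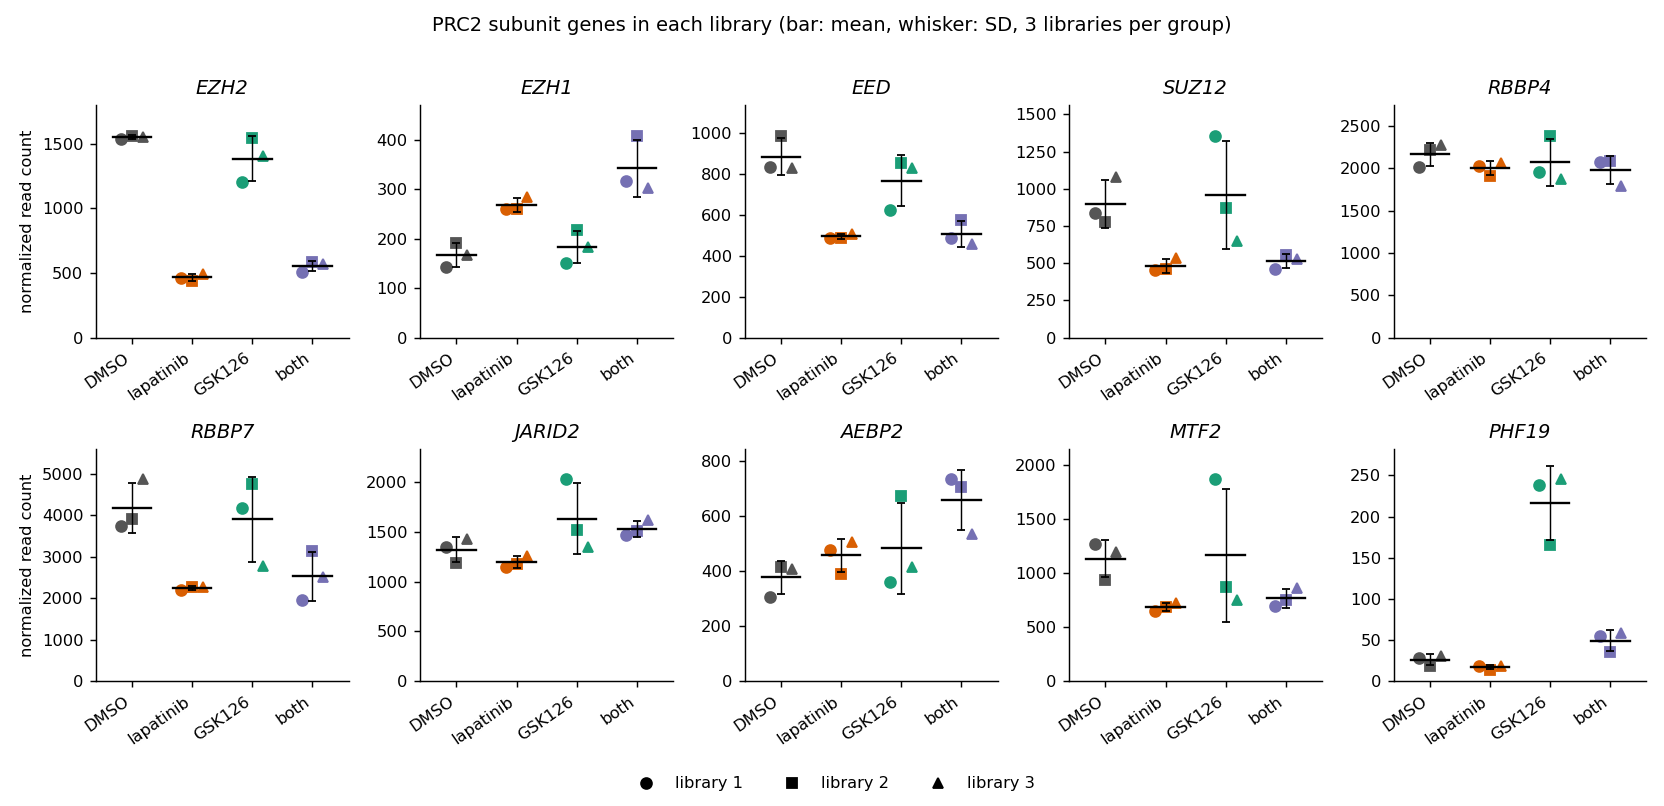
Normalized read count (vertical axis, from 0) of each PRC2 subunit gene in every library of the 4 groups; points are libraries, with a symbol for each library number, horizontal bars are group means and whiskers SD (3 libraries). EZH2 lies between 437 and 583 in the 6 libraries with lapatinib and between 1202 and 1562 in the 6 without, and PHF19 is highest in the 3 libraries with GSK126 alone.

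Per kilobase of transcript, RBBP7 had the highest level in DMSO, 1790 ± 263 normalized reads per kilobase (SD, n = 3). EZH2 followed at 587 ± 5.56 and EED at 397 ± 40.7. MTF2 (275 ± 41.6), RBBP4 (273 ± 17.4), JARID2 (230 ± 21.5) and SUZ12 (200 ± 35.6) formed a middle group. Within it the libraries of MTF2 overlapped those of each of the others, and those of JARID2 overlapped those of SUZ12. AEBP2 (73.7 ± 11.98), EZH1 (36.2 ± 5.11) and PHF19 (6.12 ± 1.51) followed in that order without overlap. On this per-length scale EZH1 thus stood far below EZH2 in vehicle, and PHF19 was the lowest member.

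EZH2 showed the steepest decrease of the members after lapatinib. Its normalized read count was 1533, 1562 and 1553 in the DMSO libraries and 463, 437 and 494 in the lapatinib libraries. The groups did not overlap, and EZH2 was 3.33-fold lower (log2 change -1.74 ± 0.13, adjusted p = 1.84e-06 by limma). With GSK126 alone it was 1202, 1542 and 1407, which overlapped DMSO (-0.17 ± 0.13, 95% interval -0.46 to 0.12, adjusted p = 0.469). With both drugs it was 505, 583 and 570, below all GSK126 libraries and 2.49-fold lower (-1.32 ± 0.13, adjusted p = 2.51e-05). These 3 libraries also lay above all 3 with lapatinib alone, but that difference did not pass the test (0.25 ± 0.13, adjusted p = 0.254). In bulk RNA, fewer cells that express a gene and less of its RNA per cell cannot be told apart. The interaction, which asks whether the lapatinib effect on EZH2 differed with GSK126, was 0.42 ± 0.19 and did not pass (adjusted p = 0.827).

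EZH1, the paralogue, moved the other way. It was 143, 191 and 168 in DMSO and 260, 260 and 285 after lapatinib, with no overlap (1.61-fold higher, 0.69 ± 0.19, adjusted p = 0.0185). This call was lost without DMSO library 1 (adjusted p = 0.0725) and without each lapatinib library in turn (adjusted p = 0.0530, 0.0509 and 0.0734). With GSK126 alone EZH1 was 151, 217 and 183, which overlapped DMSO (0.13 ± 0.19, adjusted p = 0.732). With both drugs it reached 317, 409 and 303, above every other library of the study. That was 1.87-fold above GSK126 alone (0.90 ± 0.19, adjusted p = 0.00666) and 2.04-fold above DMSO (1.03 ± 0.19, adjusted p = 0.000995). Scaling to the spike-ins, which shifted the median of all genes by -1.03 in the comparison with GSK126 alone, turned the first of these to -0.14 and left the second at 0.03. The first was also lost in a fit of the 2 groups alone (adjusted p = 0.0580) and with a term for the spike-in proportions (0.159).

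The ratio of the paralogues inside a library does not depend on scaling. Counted in normalized reads and not per length, EZH1 stood at 9.35, 12.2 and 10.8 per 100 of EZH2 in DMSO and at 56.2, 59.4 and 57.8 after lapatinib. With GSK126 alone it was 12.6, 14.1 and 13.003, and with both drugs 62.8, 70.2 and 53.1. The 6 libraries with lapatinib thus lay between 53.1 and 70.2, and the 6 without between 9.35 and 14.1. As log2 ratios, lapatinib differed from DMSO by 2.42 (5.37-fold) and both drugs from GSK126 by 2.22 (4.65-fold). An exact two-sided permutation test of 3 against 3 libraries cannot go below p = 0.1, which both reached (p = 0.125 adjusted over 5 comparisons). The GSK126 ratio was above DMSO in all libraries by a smaller 0.30 (exact permutation p = 0.1). Both drugs and lapatinib alone overlapped, with a difference of 0.09 (exact permutation p = 0.6) that was -0.00077 without library 2 of both drugs.

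**Figure D2:**
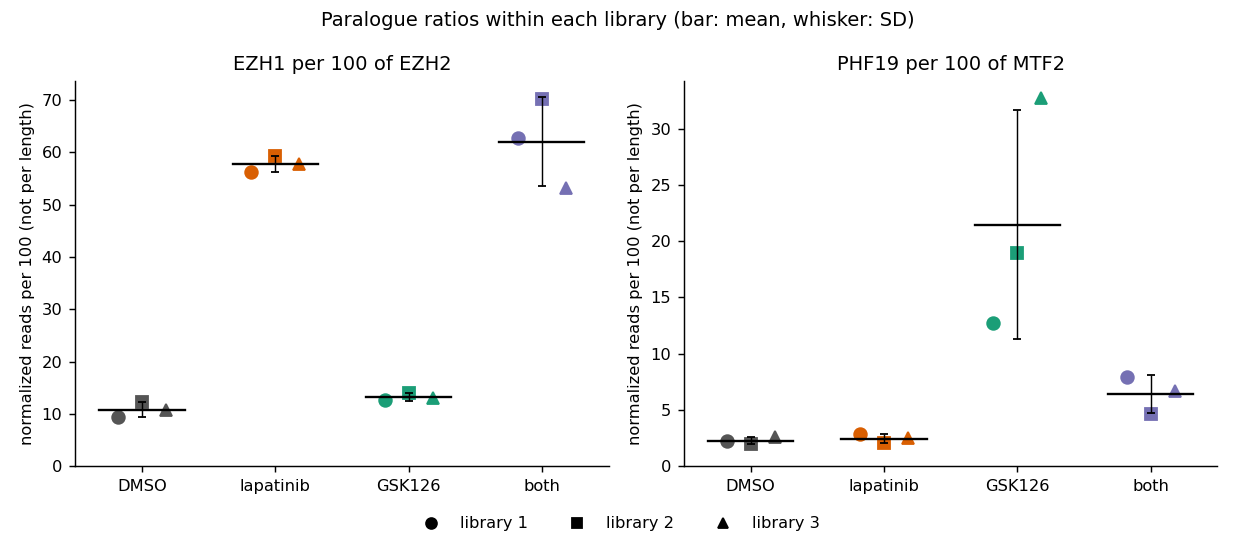
Normalized reads of EZH1 per 100 of EZH2 (left) and of PHF19 per 100 of MTF2 (right) in each library, on linear axes from 0; points are libraries, bars group means and whiskers SD (3 libraries). The EZH1 to EZH2 ratio is 53.1 to 70.2 with lapatinib and 9.35 to 14.1 without it, whereas the PHF19 to MTF2 ratio is highest with GSK126 alone.

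Of the 4 non-catalytic core genes, EED, SUZ12 and RBBP7 fell after lapatinib and RBBP4 did not pass the test. EED, the subunit that binds trimethylated H3K27, was 832, 987 and 828 in DMSO and 488, 486 and 508 after lapatinib (1.78-fold lower, -0.83 ± 0.16, adjusted p = 0.00209). SUZ12, the scaffold, went from 835, 777 and 1078 to 451, 461 and 534 (1.84-fold lower, -0.88 ± 0.23, adjusted p = 0.0134). Neither gene's groups overlapped. The SUZ12 call was lost without DMSO library 3 (adjusted p = 0.0622) or lapatinib library 1 (adjusted p = 0.0525). Without lapatinib library 1 the count of members called went from 5 to 3. Read against EZH2 in the same library, EED stood at 56.9 ± 5.44 per 100 of EZH2 in DMSO and at 106 ± 4.29 after lapatinib (SD, n = 3, not per length, no test run). SUZ12 stood at 57.9 ± 10.3 and 104 ± 5.55 on the same scale.

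With lapatinib on top of GSK126 EED and SUZ12 were lower again. EED was 622, 851 and 826 with GSK126 and 487, 575 and 456 with both drugs (-0.59 ± 0.16, adjusted p = 0.0223). SUZ12 was 1358, 870 and 646 with GSK126 and 462, 552 and 525 with both drugs (-0.84 ± 0.23, adjusted p = 0.0255). Neither pair of groups overlapped. Both calls were lost without library 1 or library 3 of both drugs (EED adjusted p = 0.0765 and 0.0777, SUZ12 0.0955 and 0.0565), which left 3 members called in place of 5. Of all genes, 10.7% and 13.6% were called without these libraries, in place of 18.2%. EED also lost its call without GSK126 library 3 (0.0593) and with total count scaling (-0.44, 0.195), and SUZ12 without library 2 of both drugs (0.0608). A fit of the 2 groups alone left 2 called members, EZH2 and PHF19, so EED and SUZ12 lost their calls there (6.86% of all genes called). A term for the spike-in proportions left 3, EZH2, PHF19 and EED, and SUZ12 lost its call (8.09%).

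RBBP4 and RBBP7 form the histone-binding pair. RBBP7 was 3746, 3903 and 4877 in DMSO and 2203, 2279 and 2264 after lapatinib, with no overlap (1.84-fold lower, -0.88 ± 0.21, adjusted p = 0.00805). It was 4176, 4761 and 2770 with GSK126 and 1950, 3131 and 2505 with both drugs, where the groups overlapped and the difference did not pass (-0.62 ± 0.21, adjusted p = 0.0608). It passed in 4 of 26 alternative analyses of that comparison. RBBP4 was 2009, 2219 and 2269 in DMSO and 2029, 1906 and 2064 after lapatinib (-0.11 ± 0.13, 95% interval -0.40 to 0.17, adjusted p = 0.548). It passed in none of the 26 alternatives of any 2-group comparison, and its groups overlapped in all 5. RBBP4 has several processed copies in the genome and lies across from SYNC on the opposite strand, as RBBP7 does from TXLNG. How the authors treated strand and reads with several matches is not given in the sources used here, so shared reads cannot be separated. Against DMSO, both drugs gave -0.80 ± 0.16 for EED (adjusted p = 0.00145), -0.79 ± 0.23 for SUZ12 (0.0150) and -0.74 ± 0.21 for RBBP7 (0.0132). All 3 calls were lost with total count scaling (0.0683, 0.0614 and 0.108). Those of SUZ12 and RBBP7 were lost without DMSO library 3 (0.0683 and 0.0607) or library 1 of both drugs (0.0597 and 0.0701). Without library 1 of both drugs 3 members were called in place of 7, and 32.3% of all genes in place of 42.1%. SUZ12 also has a copy with its own row, SUZ12P1, at 284 ± 35.02 in DMSO and 224 ± 12.4 after lapatinib (adjusted p = 0.257 by limma).

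**Figure D3:**
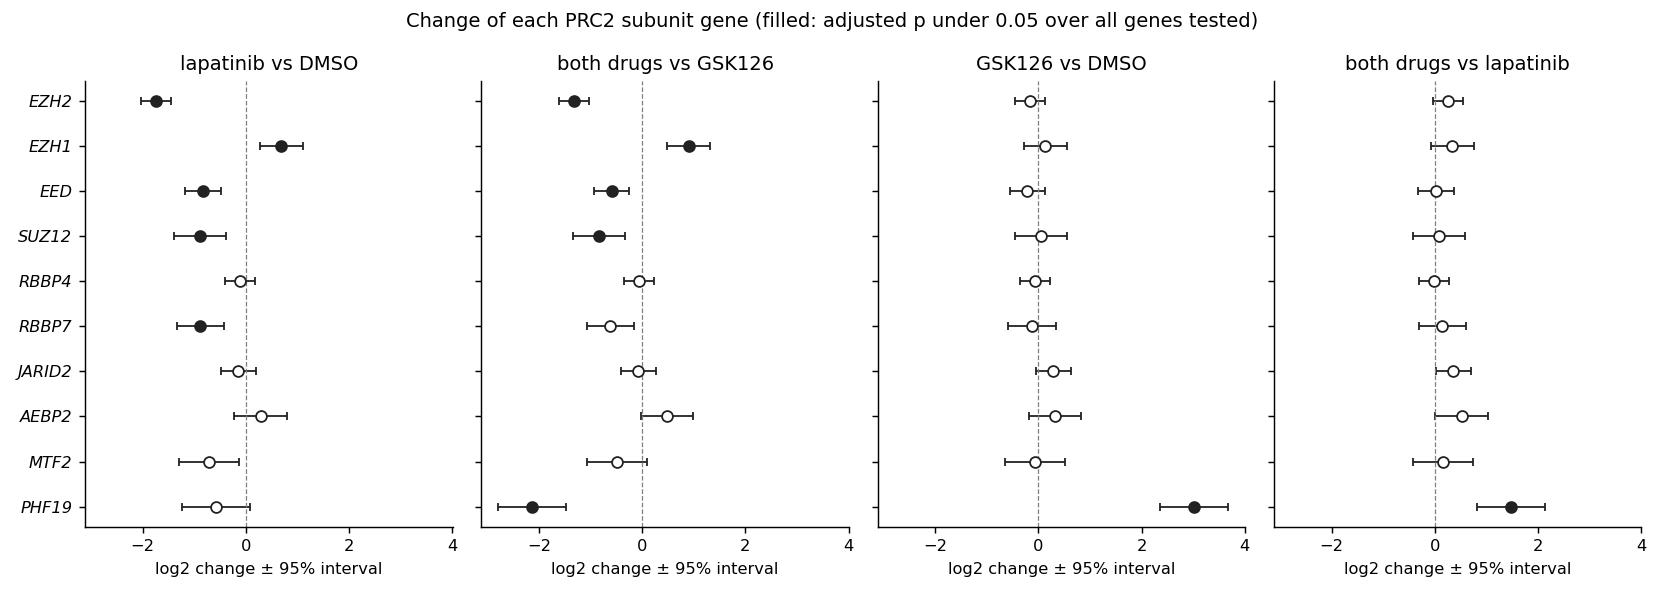
Log2 change (horizontal axis) with its 95% interval for each PRC2 subunit gene in 4 comparisons, fitted over all 12 libraries; filled points passed an adjusted p under 0.05. EZH2, EED and SUZ12 lie left of 0 and EZH1 right of it in the 2 panels in which lapatinib was added, and PHF19 lies right of 0 in the 2 panels in which GSK126 was added.

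The starts of these genes were examined because several members moved together. Of the 10 members, all matched the RefSeq promoter table (GRCh38.p14), which gives 300 bases for each start, from 250 before it to 50 after. The members had 15 such windows. The letters searched on both strands were 4 E2F-type elements (TTTCCCGC, TTTGGCGC, TTTCGCGC and TTTGCCGC), the CHR element TTTGAA and the NF-Y box CCAAT. E2F factors drive genes needed for DNA replication, and CHR elements are bound by the complex that represses cell cycle genes. An E2F-type element occurred in 6 of the 15 windows, in 6 different genes, against 3.315% of 35116 windows of all genes. A CCAAT occurred in 10 of the 15 windows, of 7 genes, against 34.614% of all windows. TTTGAA occurred in 1, that of SUZ12, against 15.161%. The member windows held 16 to 54 CpG dinucleotides, where the median of all windows was 14, and base composition was not matched in these shares. Windows with an E2F-type element, shown in capitals, are given 5′ to 3′ in the direction of the gene. EZH2, SUZ12 and MTF2 are shown because their lapatinib values were below all DMSO values, EZH1 because it was higher, and PHF19 because it rose with GSK126. On minus-strand matches the capitals show the reverse complement of the element.
EZH2, start 1, chr7:148884242-148884541, minus strand: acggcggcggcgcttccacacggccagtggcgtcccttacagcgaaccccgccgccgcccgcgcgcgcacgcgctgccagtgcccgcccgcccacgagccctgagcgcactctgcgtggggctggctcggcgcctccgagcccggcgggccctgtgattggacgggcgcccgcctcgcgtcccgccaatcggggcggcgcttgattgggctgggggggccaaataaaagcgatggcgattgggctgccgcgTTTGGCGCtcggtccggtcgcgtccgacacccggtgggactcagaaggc
SUZ12, chr17:31936757-31937056, plus strand: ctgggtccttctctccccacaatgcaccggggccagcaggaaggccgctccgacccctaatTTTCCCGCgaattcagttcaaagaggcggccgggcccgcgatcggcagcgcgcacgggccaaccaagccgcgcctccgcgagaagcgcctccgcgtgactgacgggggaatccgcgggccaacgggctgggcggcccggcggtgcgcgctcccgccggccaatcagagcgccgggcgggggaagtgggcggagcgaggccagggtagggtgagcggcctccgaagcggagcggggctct
MTF2, chr1:93079033-93079332, plus strand: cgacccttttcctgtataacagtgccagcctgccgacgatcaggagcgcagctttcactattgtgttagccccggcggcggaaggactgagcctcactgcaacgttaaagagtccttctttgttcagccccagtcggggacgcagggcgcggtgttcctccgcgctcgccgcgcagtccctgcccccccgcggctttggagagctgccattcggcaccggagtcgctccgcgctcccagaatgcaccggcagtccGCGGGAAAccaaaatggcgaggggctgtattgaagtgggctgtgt
EZH1, chr17:42744991-42745290, minus strand: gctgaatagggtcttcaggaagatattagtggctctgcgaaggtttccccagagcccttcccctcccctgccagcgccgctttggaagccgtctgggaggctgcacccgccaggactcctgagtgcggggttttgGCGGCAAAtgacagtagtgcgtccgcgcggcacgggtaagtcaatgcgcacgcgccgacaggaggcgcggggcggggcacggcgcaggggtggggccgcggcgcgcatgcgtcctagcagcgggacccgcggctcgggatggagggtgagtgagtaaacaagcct
PHF19, start 2, chr9:120877139-120877438, minus strand: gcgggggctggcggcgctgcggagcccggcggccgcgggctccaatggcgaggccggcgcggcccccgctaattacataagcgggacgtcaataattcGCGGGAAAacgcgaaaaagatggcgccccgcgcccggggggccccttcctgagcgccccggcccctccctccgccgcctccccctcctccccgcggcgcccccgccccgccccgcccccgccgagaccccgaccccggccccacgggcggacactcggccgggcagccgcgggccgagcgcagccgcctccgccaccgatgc

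In EZH2 the element TTTGGCGC began 2 bases after the start, and 4 CCAAT boxes lay between 94 and 13 bases before it. MTF2 had TTTCCCGC beginning at base 6 after the start, on the opposite strand. In SUZ12 the element TTTCCCGC began 189 bases before the start, in PHF19 152 bases before the second start, and in AEBP2 TTTGCCGC began 150 bases before. EZH1, which moved in the opposite direction to EZH2 after lapatinib, also had one, TTTGCCGC, 115 bases before its start. None of the 4 elements was in the windows of EED, RBBP4, RBBP7 or JARID2. Among the 6 genes with an element, EZH2 and SUZ12 fell, EZH1 rose, and AEBP2, MTF2 and PHF19 did not pass the test with lapatinib. The libraries do not tell which start of a gene was in use.

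**Figure D4:**
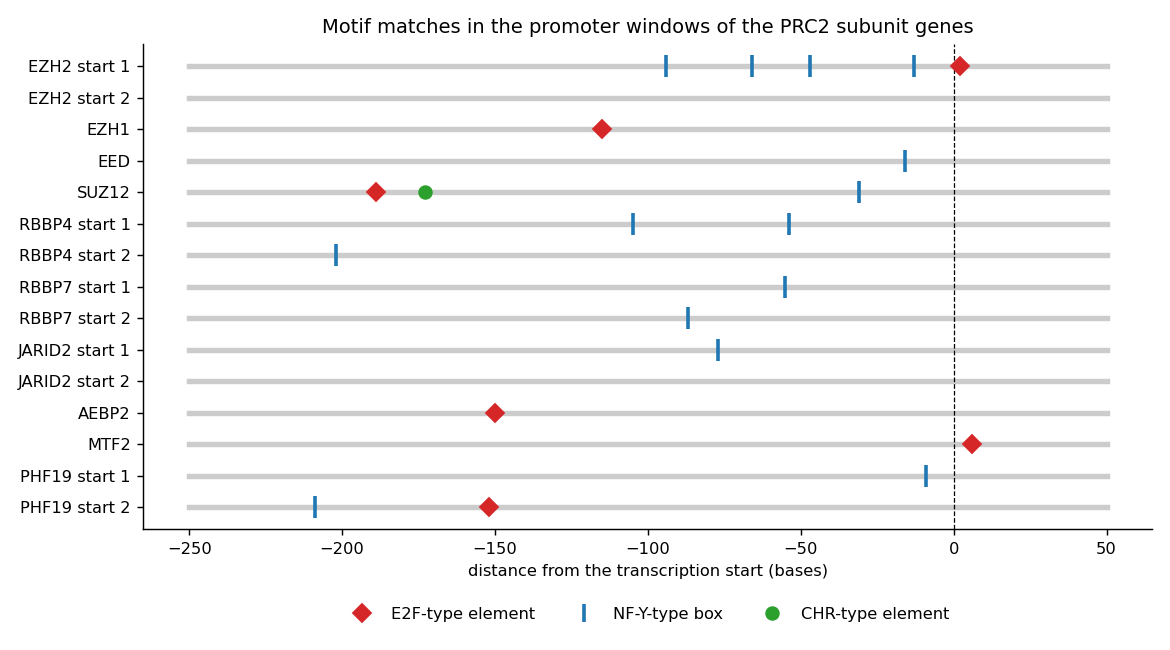
Position of each motif match in the 15 promoter windows of the PRC2 subunit genes, as distance in bases from the transcription start (dashed line); grey bars are the windows of 300 bases, diamonds E2F-type elements, ticks NF-Y-type boxes and the circle the CHR-type element. Diamonds are in 6 windows, of EZH2, EZH1, SUZ12, AEBP2, MTF2 and PHF19.

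JARID2 and AEBP2, the cofactors of one variant of PRC2, did not pass the test with either drug alone. JARID2, which binds nucleosomes and is itself methylated by PRC2, was 1350, 1188 and 1430 in DMSO and 1145, 1176 and 1261 after lapatinib, which overlapped (-0.14 ± 0.16, 95% interval -0.48 to 0.19, adjusted p = 0.520). With GSK126 it was 2034, 1525 and 1344 (0.29 ± 0.16, adjusted p = 0.270). With both drugs it was 1469, 1508 and 1625, above all lapatinib libraries, though the difference did not pass (0.36 ± 0.16, adjusted p = 0.143). Without GSK126 library 1, which widens the shared spread, it passed (adjusted p = 0.0322). It also passed in a fit of those 2 groups alone (0.0109) and with total count scaling (0.45, adjusted p = 0.0447). Of all genes, 25.4%, 36.6% and 15.7% were called in these settings, against 17.9% in the main fit. Against DMSO, both drugs gave a call for JARID2 with total count scaling (0.47, adjusted p = 0.0165).

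AEBP2, a zinc finger cofactor that stabilizes the complex, was 305, 414 and 408 in DMSO, 476, 388 and 505 with lapatinib, and 359, 670 and 415 with GSK126. These 3 groups overlapped, and neither drug alone gave a call (0.29 ± 0.23 and 0.32 ± 0.23, adjusted p = 0.388 and 0.433). With both drugs it was 733, 705 and 534, above every DMSO library (1.75-fold, 0.81 ± 0.23, adjusted p = 0.0146). This call was lost without DMSO library 1 (0.0655) and without library 1 (0.0613) or library 2 (0.0560) of both drugs, and the change turned to -0.20 with scaling to the spike-ins. AEBP2 was also called higher with both drugs than with lapatinib in a fit of those 2 groups alone (adjusted p = 0.0179), and higher than with GSK126 when GSK126 library 2 was left out (0.75, adjusted p = 0.0153).

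The Polycomb-like proteins, which carry the complex to unmethylated CpG-rich DNA, differed from each other. MTF2 was 1265, 939 and 1194 in DMSO and 650, 685 and 721 after lapatinib. The groups did not overlap, but the difference did not pass (-0.71 ± 0.27, adjusted p = 0.0663). MTF2 had the largest SE of the members other than PHF19. Its GSK126 libraries were 1871, 870 and 751, and the first of them enters the pooled spread. The change after lapatinib passed without GSK126 library 1 (adjusted p = 0.00152), in a fit of the 2 groups alone (0.00133) and with a term for the spike-in proportions (0.00205). All of these settings take GSK126 library 1 out of the pooled spread. In them 40.5%, 47.8% and 39.3% of all genes were called, against 28.0% in the main fit. It also passed without GSK126 library 3 (0.0447, 29.4% of all genes called) and with DESeq2 on the reads (0.0442, 32.8%). Without GSK126 library 1 MTF2 was also called lower with GSK126 than in DMSO (-0.47, adjusted p = 0.0459), against -0.07 ± 0.27 with all libraries. With both drugs MTF2 was 691, 748 and 863, below all DMSO libraries (-0.56 ± 0.27, adjusted p = 0.117). That difference passed without GSK126 library 1 (adjusted p = 0.00506), which took the members called lower from 4 to 5. The share of all genes called then went from 42.1% to 52.7%. It also passed in a fit of the 2 groups alone (0.0130), with the term for the spike-in proportions (-0.48, 0.0259) and with spike-in scaling (-1.56, 0.0163). Against GSK126 alone, spike-in scaling called MTF2 lower with both drugs (-1.53, adjusted p = 0.0283).

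PHF19 was the member called higher with GSK126. It was 28.2, 18.8 and 31.0 in DMSO, from 19 to 29 reads, and 239, 165 and 246 with GSK126, from 215 to 278 reads. The lowest GSK126 library was above the highest DMSO library, and the increase was 8.10-fold (3.02 ± 0.31, adjusted p = 2.51e-05). It was called in all 26 alternative analyses, with changes from 2.66 to 3.20. The lowest of these came from the term for the spike-in proportions (adjusted p = 0.0284), and without GSK126 library 1 it was 2.94 (adjusted p = 6.14e-05). That term sets GSK126 library 1 aside, and its shift for the other GSK126 libraries rests on library 1 of both drugs. It can therefore hardly separate the spike-in proportions from the drug. Even so, at 51.0 ± 10.6 normalized reads per kilobase PHF19 remained far below MTF2, which had 282 ± 149 in the same libraries. In normalized reads PHF19 stood at 2.27 ± 0.298 per 100 of MTF2 in DMSO and at 21.5 ± 10.2 with GSK126 (SD, n = 3, no test run).

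PHF19 was lower with lapatinib when GSK126 was present. With both drugs it was 54.8, 34.8 and 57.8, 4.37-fold below GSK126 alone with no overlap (-2.13 ± 0.31, adjusted p = 0.000422). It was still above all libraries with lapatinib alone, which were 18.6, 13.8 and 17.8 (2.78-fold, 1.47 ± 0.31, adjusted p = 0.00421), a call that was lost with scaling to the spike-ins (1.01, adjusted p = 0.468). The comparison of both drugs with DMSO gave 1.85-fold (0.89 ± 0.31, adjusted p = 0.0329). That call was lost in 7 of 26 alternatives, among them leaving out DMSO library 2 (0.116) or library 1 (0.108) or library 3 (0.106) of both drugs, and its sign turned with scaling to the spike-ins (-0.09). Without GSK126, lapatinib left PHF19 below all DMSO libraries without a call (-0.58 ± 0.31, adjusted p = 0.175). Whether the lapatinib effect differed with GSK126 was tested by the interaction, which was -1.54 ± 0.43 and did not pass (adjusted p = 0.384). For the interaction limma called 0 of the 10 members, with 2 at an unadjusted p under 0.05 (PHF19 and EZH2), and edgeR and DESeq2 called 0 as well. Of all genes tested, 0.0212% were called.

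Of the other PRC2 cofactors, 5 were in the table and all were tested (PHF1, C17orf96, LCOR, LCORL and SKIDA1). After lapatinib 2 fell, where 14.3% of all genes fell, with a median change of -0.50. C17orf96, now named EPOP, an elongin-binding cofactor of the Polycomb-like form, was 478, 399 and 450 in DMSO and 198, 171 and 180 after lapatinib (-1.27 ± 0.23, adjusted p = 0.00136). With GSK126 it was 1317, 709 and 686, above all DMSO libraries (0.96 ± 0.23, adjusted p = 0.0121), and its highest value was in GSK126 library 1. With both drugs it was 371, 418 and 490, which overlapped DMSO. SKIDA1, a less studied member of this family, was 137, 191 and 174 in DMSO and 70.5, 71.3 and 78.8 after lapatinib (-1.16 ± 0.24, adjusted p = 0.00379), and did not pass with GSK126 (-0.20 ± 0.24, adjusted p = 0.658). PHF1, the remaining Polycomb-like gene, passed with neither drug (-0.09 ± 0.16 and -0.14 ± 0.16, adjusted p = 0.689 and 0.627).

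Because RBBP4 and RBBP7 also belong to chromatin assembly, deacetylase and cell cycle repressor complexes, 23 further genes of those complexes were listed. After lapatinib 8 of them fell and 2 rose, where 14.3% of all genes fell and 13.7% rose, with a median of -0.35. Under total count scaling 4 fell and 2 rose, where 1477 of 14238 genes fell and 2317 rose. CHAF1A, the large subunit of the assembly factor that follows the replication fork, fell from 2496 ± 609 to 423 ± 56.9 (-2.54 ± 0.22, adjusted p = 3.81e-06). SAP30, of the SIN3 deacetylase complex, fell from 824 ± 146 to 466 ± 23.5 (-0.81 ± 0.16, adjusted p = 0.00260). MTA3, of the NuRD complex, rose from 1831 ± 197 to 3083 ± 92.5 (0.76 ± 0.15, adjusted p = 0.00227). With GSK126, 1 fell, MTA1 (-0.59 ± 0.14, adjusted p = 0.0109), and 1 rose, CHD3 (0.54 ± 0.14, adjusted p = 0.0191), where 3.93% of all genes fell and 10.7% rose.

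The E2F and RB family controls genes of DNA synthesis. Of its 13 genes, 7 fell, 1 rose and 5 did not pass after lapatinib, with a median of -0.69, where 14.3% of all genes fell and 13.7% rose. E2F1 fell from 2358 ± 424 to 465 ± 40.0 (-2.33 ± 0.18, adjusted p = 2.00e-06), E2F2 from 1160 ± 24.6 to 145 ± 39.7 (-3.03 ± 0.23, adjusted p = 1.57e-06) and E2F7 from 320.5 ± 50.6 to 28.0 ± 5.79 (-3.48 ± 0.36, adjusted p = 2.22e-05). RBL2, the pocket protein of resting cells, rose from 573 ± 125 to 1235 ± 118 (1.13 ± 0.26, adjusted p = 0.00666). All 8 replication licensing genes listed fell, with a median of -2.11, and these 8 also fell under all 4 other scalings. Among them CDC6, which loads the replicative helicase, went from 12042 ± 576 to 2321 ± 95.2 (-2.37 ± 0.13, adjusted p = 1.28e-07). With GSK126 alone 0 of the 13 family genes were called by limma, edgeR or DESeq2, with 1 at an unadjusted p under 0.05 by limma (E2F1, -0.42 ± 0.18, adjusted p = 0.157). By limma 2 of the 8 licensing genes fell, CDC6 (-0.54 ± 0.13, adjusted p = 0.0120) and PCNA (-0.40 ± 0.12, adjusted p = 0.0385). Of all genes, 3.93% fell and 10.7% rose with GSK126. With total count scaling 0 of the 8 were called (limma adjusted p = 0.167 for CDC6 and 0.278 for PCNA). With upper quartile scaling 1 was called, and PCNA was not (0.0756). The part of these genes in the decrease of EZH2, EED, SUZ12 and RBBP7 was not tested.

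Genes that act against PRC2 or read its mark were listed as well. Of the 2 H3K27 demethylases, KDM6B rose after lapatinib from 631 ± 94.6 to 832 ± 70.3 (0.41 ± 0.14, adjusted p = 0.0490), and its change was -0.13 with scaling to the spike-ins. On the reads DESeq2 called 1 of these 2 genes higher and edgeR called 0, so the limma call of KDM6B was lost with edgeR. KDM6A did not pass (0.45 ± 0.31, adjusted p = 0.304). In PRC1, the complex with ubiquitin ligase activity that recognizes methylated H3K27 through CBX proteins, 1 of 16 core genes fell after lapatinib and 1 rose, where 14.3% of all genes fell and 13.7% rose. CBX2 fell from 9332 ± 1447 to 5580 ± 312 (-0.73 ± 0.14, adjusted p = 0.00229), and RING1, a ligase subunit, was higher (0.53 ± 0.16, adjusted p = 0.0277), with a change of -0.01 when scaled to the spike-ins. With GSK126, PHC1 (0.89 ± 0.24, adjusted p = 0.0223) and RNF2, the other ligase subunit (0.77 ± 0.23, adjusted p = 0.0381), rose, where 10.7% of all genes rose.

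Among 12 other histone methyltransferase genes, 4 fell and 1 rose after lapatinib, where 14.3% of all genes fell and 13.7% rose. The median of the 12 was -0.16, and 0.01 under total count scaling. Among enzymes that methylate H3K9 in heterochromatin, SUV39H1 fell from 894 ± 30.9 to 309 ± 19.3 (-1.53 ± 0.16, adjusted p = 2.90e-05). SUV39H2 fell from 614 ± 42.9 to 240 ± 21.9 (-1.35 ± 0.21, adjusted p = 0.000533). SETDB1, another of them, did not fall. It was 1215 ± 64.5 in DMSO and 1477 ± 69.7 after lapatinib, with no overlap and without a call. WHSC1, now NSD2, an H3K36 methyltransferase, fell from 1471 ± 169 to 737 ± 28.1 (-0.99 ± 0.18, adjusted p = 0.00150). EHMT1, a methyltransferase of H3K9 in euchromatin, rose (0.85 ± 0.20, adjusted p = 0.00693). With GSK126 limma, edgeR and DESeq2 called 0 of the 12, with 2 at an unadjusted p under 0.05 by limma. Of all genes, 10.7% rose and 3.93% fell in that comparison. Scaled to the spike-ins, the calls of C17orf96, CHAF1A, E2F1, E2F2, E2F7, CDC6 and SUV39H1 after lapatinib were kept. Those of SKIDA1, SAP30, MTA3, RBL2, CBX2, SUV39H2, WHSC1 and EHMT1 were lost without a change of sign. With GSK126 the calls of C17orf96, MTA1, CHD3, PHC1, RNF2, CDC6 and PCNA were lost on that scaling, again without a change of sign.

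**Figure D5:**
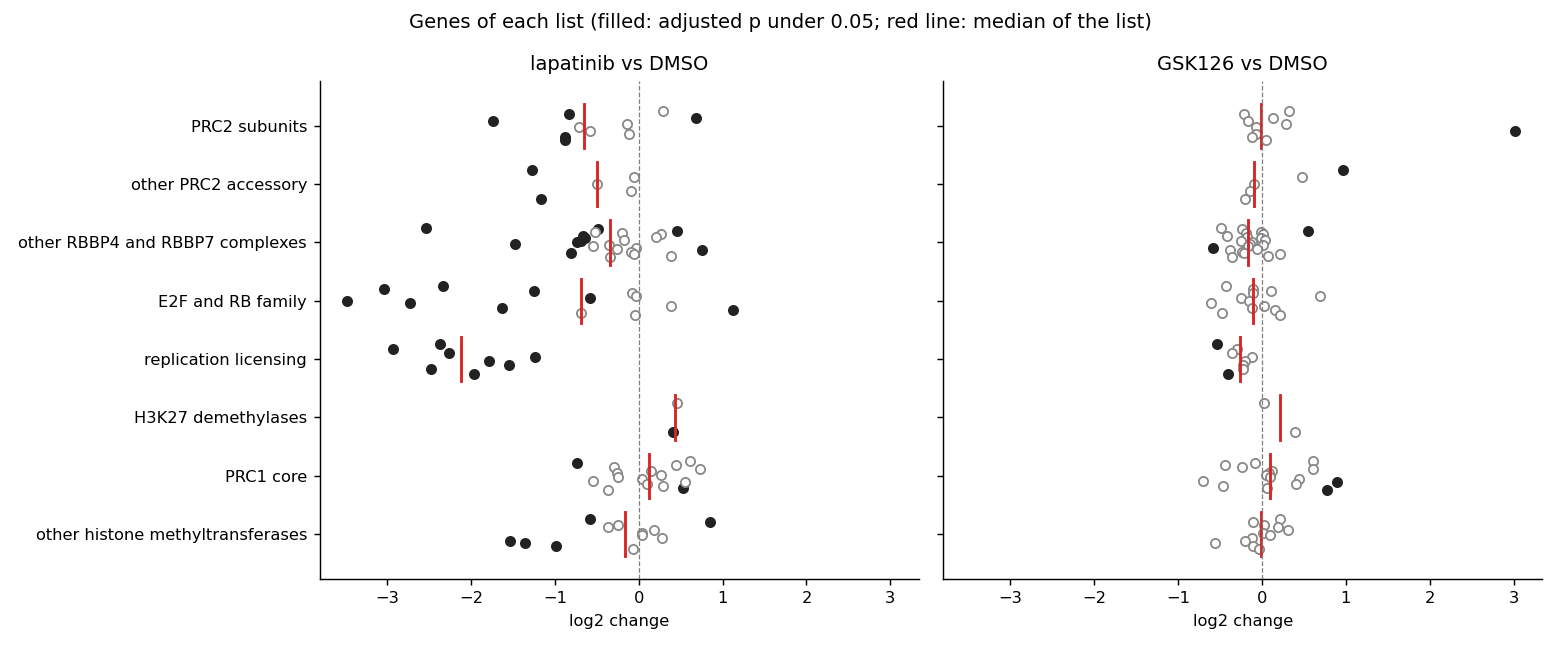
Log2 change of each gene of the PRC2 subunits and of 7 related lists after lapatinib (left) and after GSK126 (right), against DMSO, on a shared horizontal axis; each point is a gene, filled at an adjusted p under 0.05, and the red line is the median of the list. All 8 replication licensing genes lie left of 0 after lapatinib, and PHF19 is the point at 3.02 after GSK126.

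The genes closest to EZH2 over the 12 libraries, by the root mean square difference of centred log2 values, were FANCD2 (0.124), INSIG1 (0.130), GINS3 (0.147), NDC1 (0.164) and ODC1 (0.174). FANCD2 acts in repair of DNA crosslinks, INSIG1 in sterol sensing, GINS3 in the replicative helicase, NDC1 in the nuclear pore and ODC1 in polyamine synthesis. On the same measure EED stood at 0.427 from EZH2, RBBP7 at 0.449, SUZ12 at 0.457 and MTF2 at 0.597. Closest to EZH1 were LRP11 (0.107), UBE2J1 (0.120), PPL (0.121), TTC9 (0.123) and RIT1 (0.127). These distances describe the 12 libraries and carry no test.

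Markers of other cells were examined beside the PHF19 increase. Of 4 endothelial markers, 2 were tested and 1 rose with GSK126, the adhesion gene CDH5, from 141 ± 36.5 to 1266 ± 351 (3.14 ± 0.25, adjusted p = 4.33e-06), while VWF fell. The summed level of the 4 was 206 to 270 in DMSO, 185 to 238 with lapatinib, 934 to 1561 with GSK126 and 784 to 1093 with both drugs. In the GSK126 libraries PECAM1 was at 3.29, 2.30 and 2.65 and KDR at 0, 0.767 and 0, so 2 of these 4 markers were at or near 0 there. Of 5 fibroblast markers 2 were tested and COL1A2 fell, with the summed level at 243 to 380 in DMSO and 142 to 241 with GSK126, where COL1A2, DCN and LUM were at 0. The 4 leukocyte markers summed to at most 80.9 in any library and with GSK126 limma, edgeR and DESeq2 called 0 of them (0 at an unadjusted p under 0.05 by limma). That highest sum was in library 1 of both drugs. There PTPRC was at 19.9, against 0 and 0 in libraries 2 and 3 of both drugs. The fibroblast marker PDGFRB was at 23.6 there, against 1.62 and 1.93.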

How the data were processed

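Messenger RNA of SKBR3 cells was measured in 12 libraries, 3 for each of 4 groups named by the labels, with single-end reads of 75 bases. Per the submitters' processing notes, STAR, DESeq2 and the build hg19 were used. Versions, counter, annotation and strand setting are not given in the sources used here. What the authors deposited is a signal: the reads of a gene over a library-wise size factor. All values (100% within 0.01) were whole multiples of 1 read's worth, so reads were recovered. On those reads edgeR called 3877 genes for lapatinib against DMSO and DESeq2 4652, against 3973 by limma.

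Group means were fitted over all 12 libraries (8 residual degrees of freedom) on log2(value + 1) with limma (3.58.1, under R 4.3.3), the main test, with a trended prior. Tested were genes that reached 10 in 3 or more libraries, 14179 of 22170, with Benjamini-Hochberg adjustment over all of them and calls at 0.05. The procedure was tested on simulated data in which a gene had the same spread between libraries in every group. That test does not cover the unequal spreads of the groups here. Ratios within a library were compared by an exact permutation test. Replicates of a group differed by at least 5.91 times the variance of sampling noise, so all were kept. Lengths came from GENCODE v29, and promoter windows from RefSeq (GRCh38.p14).

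The members and lists were chosen with earlier results of these data known. Named genes were all members, genes from the 3 of each list whose adjusted p was lowest in a comparison, and the 5 genes nearest to EZH2 and to EZH1. Not all of the genes with the lowest adjusted p are described. CBX7, PHC2, MCM2 and HAT1 are among those left out. A few further genes of the lists (RBL2, PHF1, KDM6A, SETDB1, the markers and SUZ12P1) were named after their values were seen. Alternatives were pseudocounts of 0.5 and 5, no filter or one of 50, 4 other scalings, a constant prior, the compared groups alone, a replicate block, DESeq2 1.42.0 and edgeR's quasi-likelihood test (4.0.16) on the reads, and leaving out each library. A term for the spike-in proportions, entered as a cluster label of the libraries, was among them as well.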

Additional observations from a re-analysis of the deposited data

How the results depend on the processing

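Each of the 10 members was recomputed in every comparison under the alternatives. Scaling to the spike-ins, whose addition the labels do not describe, moved the median of all genes by -0.53 for lapatinib against DMSO, -0.46 for both drugs against lapatinib, -1.03 against GSK126 and -1.00 against DMSO. It turned 3 called changes, EZH1 for both drugs against GSK126 (-0.14), and AEBP2 (-0.20) and PHF19 (-0.085) for both drugs against DMSO. It left 1 called member between lapatinib and DMSO (5.48% of all genes called) and 0 between both drugs and lapatinib (2.81%). For both drugs against lapatinib the count was 2 with total count scaling (15.7% of all genes) and 3 with the compared groups alone (36.6%). For both drugs against GSK126 it was 2 with the compared groups alone (6.86%) and 3 with the term for spike-in proportions (8.09%). Leaving out 1 library gave 3 to 6 called members for lapatinib against DMSO, 1 to 2 for GSK126 against DMSO, 1 to 2 for both drugs against lapatinib, 3 to 6 for both drugs against GSK126 and 3 to 8 for both drugs against DMSO. The difference in the log2 ratio of EZH1 to EZH2 between both drugs and lapatinib ran from -0.00077 to 0.20. The cause was not tested. EZH2 after lapatinib, EZH2 and PHF19 for both drugs against GSK126 and PHF19 after GSK126 kept their calls in all 26 alternatives. PHF19 rests on at most 29 reads in a library without GSK126, which limits its precision there.

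With the replicate number as a block (replicate block), the counts of called members were 5, 1, 1, 5 and 7, as without it. Of 18 pairs of libraries with the same number in different groups, 4 had correlated deviations over 0.1, against 13 of 36 pairs with other numbers. The mean correlation was higher with the own number than with other numbers in 4 of 12 libraries. The numbers were therefore not taken to pair the libraries.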
